A study of Rattus norvegicus with 2 samples.

Results

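The genes described here were 9 secreted modulators of Wnt signalling, Sfrp1, Sfrp2, Sfrp4, Sfrp5, Frzb, Dkk2, Dkk3, Notum and Wif1, together with Axin2, an intracellular feedback gene of the same pathway. They were picked by gene symbol, each symbol stood for 1 row, and all 10 were found among the 32623 genes counted in each library. The study dissociated the cochlear duct of Sprague-Dawley rats at postnatal day 1 (P1) and postnatal day 7 (P7), pooled the animals of an age, and made 1 droplet-based single-cell RNA library per age with 3′ counting of unique molecular identifiers (UMIs). Neither the labels nor the methods name a genotype or a treatment, and the groups differ by age alone in their labels. Each age had 1 library, so differences between ages were not tested, and age, animals, dissection and library cannot be told apart.

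The P1 library held 14068 barcodes and 114285848 UMIs, and the P7 library held 14501 barcodes and 101264868 UMIs. After limits on genes, UMIs and mitochondrial share, 12779 cells of the P1 library and 12581 of the P7 library remained, together 25360. The methods of the study give a somewhat smaller total. The kept cells had a median of 6565 UMIs (P1) and 6878 UMIs (P7). The libraries shared 60 barcodes, 53 of them among kept cells. The labels call both samples greater epithelial ridge cells, a transient epithelium beside the hair cells. A UMI of Epcam, an epithelial adhesion gene, was present in 4.94% of the kept cells at P1 and in 4.55% at P7, and the other genes of the epithelial list differed widely. Krt8, Krt18, Cldn4 and Esrp1 were each found in at most 3.07% of kept cells in either library, and Cdh1 in 3.18% at P1 and 9.57% at P7. Spint2, of the same list, was found in 65.6% and 66.6% of kept cells. The class scored on the whole list held 1.36% of the kept cells at P1 and 0.986% at P7. Of the hair cell markers Pou4f3 was at 0 in the kept cells of P7. The others were found there, Ccer2 in 0.676% of cells, Myo7a in 0.0874%, Otof and Atoh1 each in 0.0477% and Gfi1 in 0.0159%. Only Otof and Ccer2 were found in enough cells to enter the score. By that score 0 of the 12581 cells at P7 were gated as hair cells (23 at P1). The upper limit of the exact 95% binomial interval was 0.0293%, which holds for cells passing this gate and not for all hair cells.

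Wnt proteins are lipid-modified ligands that bind Frizzled receptors and LRP co-receptors, keep β-catenin from being degraded by the destruction complex, and so switch on genes through TCF and LEF factors. Secreted modulators act outside the cell. SFRP proteins (Frzb is one of them) and WIF1 bind the ligands, NOTUM is an enzyme that removes their lipid, and DKK proteins are named for the family whose classical members bind the LRP co-receptors. Axin2 is a scaffold of the destruction complex and is itself a widely used target gene of the pathway. In the developing inner ear Wnt signalling is known for its part in the growth of the sensory epithelium and in the surrounding mesenchyme.

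Cells were placed in 15 classes by marker lists, and each class is named after its list. A class is a range of a score and not a proven cell type. Of the classes, 10 held at least 50 cells in both libraries. The mesenchymal ones were Otor-high fibrocytes (2693 cells at P1, 2302 at P7), interstitial fibroblasts (1552 and 2128), Penk mesenchyme (576 and 101), Aldh1a2 mesenchyme (430 and 397) and Ccn3 mesenchyme (1866 and 595). The others were the epithelial class (174 and 124), glia (1023 and 3007), endothelium (142 and 166), pericytes (275 and 248) and macrophages (140 and 139). Neurons were numerous enough only at P1 (326 cells), and a group of 81 cells at P7 marked by Dlx5 and Matn4, which rested on too few markers for a type name, was kept as Dlx5-Matn4 cells. No class was assigned to 3500 cells at P1 and 3247 at P7. Between 2.55% (pericytes) and 27.8% (glia) of the cells of these 10 classes lay near the cut at P1, and 36.6% of Penk mesenchyme and 55.6% of the Dlx5-Matn4 cells did so at P7.

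Levels are given as CPM, the UMIs of a gene per 1e6 UMIs summed over the cells of a class in a library. Intervals are exact Poisson or binomial 95% intervals and cover counting error only. Shares of cells with a UMI were taken after each cell was thinned to 2000 UMIs. In droplet data free RNA reaches every cell, so the macrophage class, which should lack these genes, was used as background (median depth of 7676 UMIs at P1 and 6516 at P7). A class was called above background when its interval lay above that of macrophages. What gave macrophages these UMIs was not tested.

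**Figure D1:**
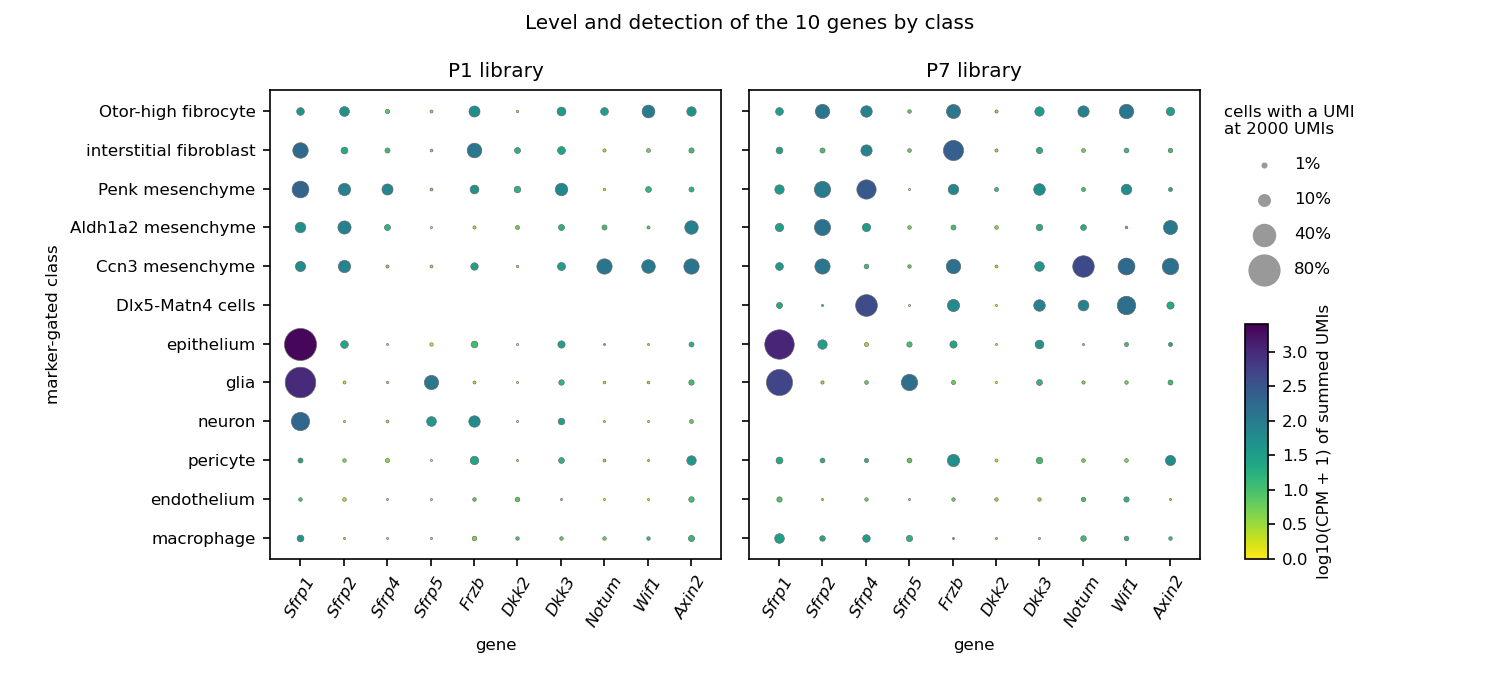
Dot plot of the 10 genes (horizontal axis) in the classes with at least 50 cells (vertical axis), with 1 panel per library. Dot area is the share of cells with a UMI at 2000 UMIs per cell and colour is log10(CPM + 1). Sfrp1 filled the epithelial and glial rows, Sfrp5 the glial row, and Notum, Wif1 and Axin2 were highest in the Ccn3 mesenchyme row of both panels.

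For 8 of the 10 genes the class with the highest level was mesenchymal at P1, and likewise for 8 at P7, counting the Dlx5-Matn4 cells as mesenchymal. Several of the 11 classes ranked in each library were mesenchymal. The share of all genes with a mesenchymal highest class was not computed, so these counts have no background. The exceptions were Sfrp1, highest in the epithelial class, and Sfrp5, highest in glia. The 8 at P7 include Dkk2, highest in Penk mesenchyme with 7 UMIs, although no class was above background for Dkk2 at P7. Over all kept cells, 4 of the 10 genes were at least 2-fold higher at P7 (Sfrp4, Sfrp5, Frzb and Notum), against 10.4% of all 11780 genes with enough UMIs. Dkk2 alone was at least 2-fold lower at P7 (1 of 10), against 10% of all genes. With a pseudocount of 5 CPM this call was lost (-0.46 on the log2 scale), and with each class at the same weight Sfrp1 was also past 2-fold (-1.11). The median log2 ratio of P7 to P1 was 0.40 over the 10 genes and 0.09 over all genes. Within the 10 classes, 69 of the 100 pairs of gene and class reached the minimum of 20 UMIs, of which 31 were at least 2-fold higher at P7 and 4 at least 2-fold lower. Only 34 of the 69 pairs stood above the macrophage background in the library with the higher level, and these held 11 of the 31 higher calls and the 4 lower calls, so most higher calls were at levels not above that background. This filter admits a pair through the library where its level is high, and the split is a description. The 69 pairs include 3 of macrophages, 2 of them higher, which cannot stand above their own level. The split also depends on the class taken as background. At P7 endothelium was lower than macrophages for Sfrp4 (4.06 and 30.7 CPM), Sfrp2 (2.03 and 22.3 CPM) and Frzb (4.74 and 14.9 CPM). It was not lower for Wif1 (14.9 and 13.0 CPM) or Dkk2 (2.03 and 1.86 CPM). In Otor-high fibrocytes 6 of 10 genes were higher and 0 lower, against 15% and 8.95% of all genes with enough UMIs in that class. In interstitial fibroblasts 5 of 10 were higher and 3 lower (11.4% and 10.6% of all genes), in Penk mesenchyme 2 and 1 of 8 (9.98% and 11.3%), in Aldh1a2 mesenchyme 2 and 0 of 8 (13.5% and 6.1%) and in Ccn3 mesenchyme 4 and 0 of 9 (12.5% and 8.97%). In glia 5 of 9 were higher and 0 lower (13.6% and 10.7%), and all 5 (Sfrp2, Sfrp4, Frzb, Notum and Wif1) were at 2.40 to 5.76 CPM at P7, under the macrophage level of each. The counts were, in the epithelial class 1 and 0 of 5 (12.4% and 8.94%), in endothelium 1 and 0 of 1 (11% and 6.33%), in pericytes 3 and 0 of 6 (8.5% and 5.85%) and in macrophages 2 and 0 of 3 (12.3% and 5.85%). In the cells without a class 4 of 10 were higher and 2 lower (12.1% and 9.9%).

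**Figure D2:**
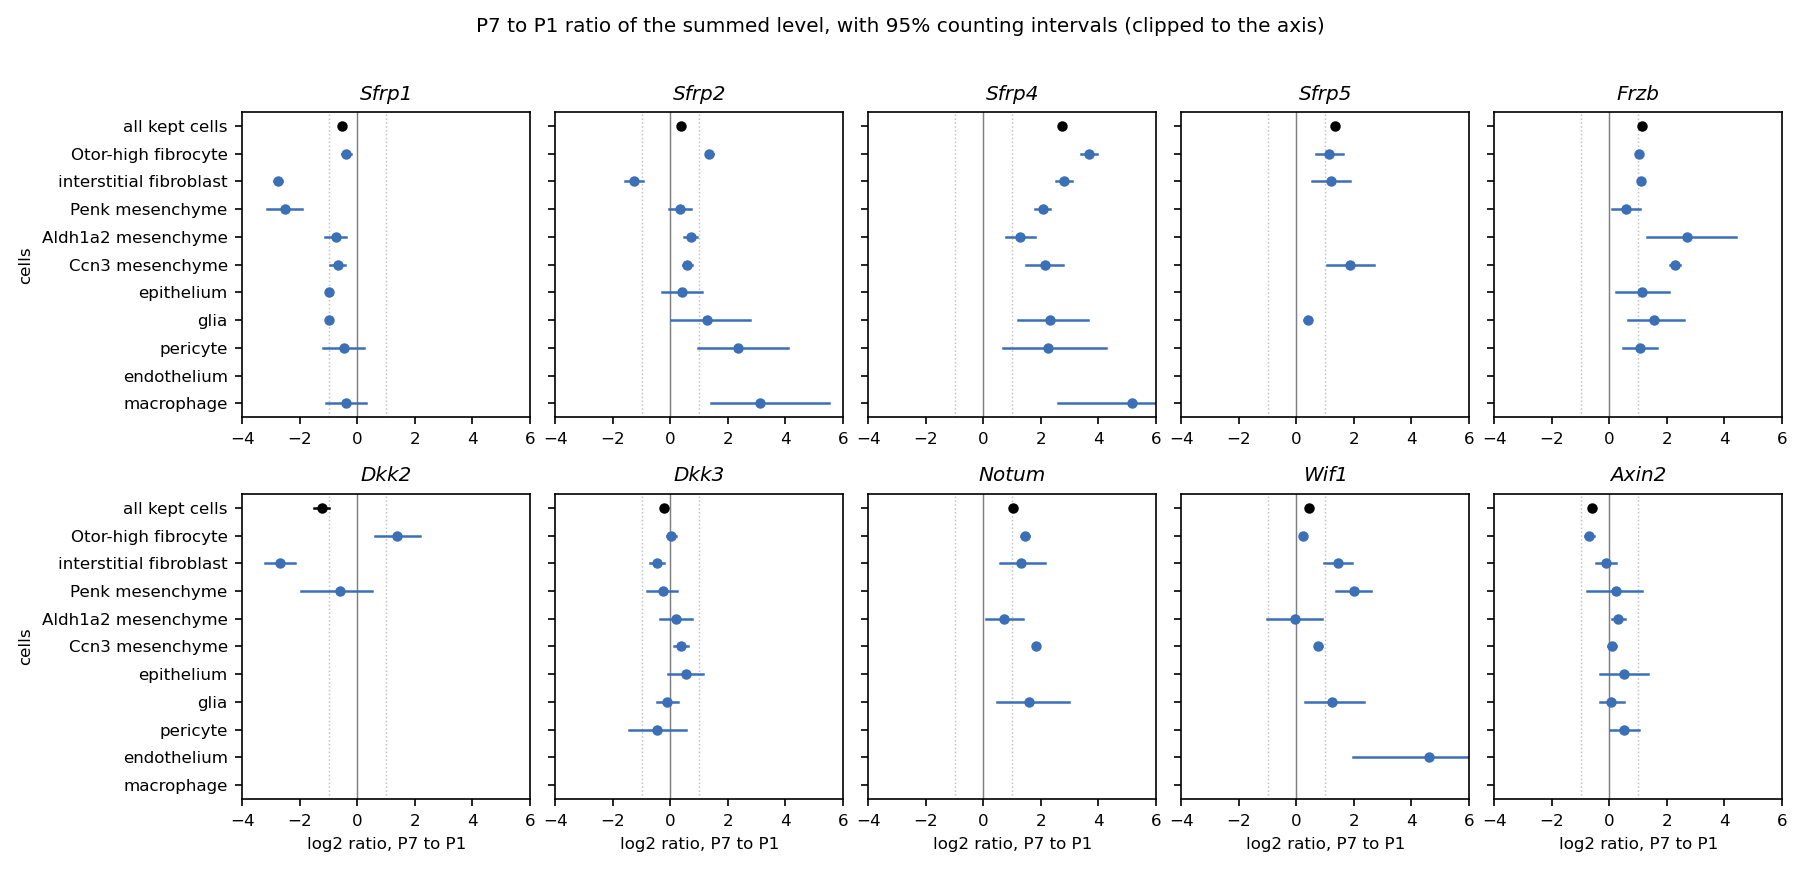
Log2 ratio of the P7 level to the P1 level (horizontal axis) of each gene over all kept cells (black) and within each class (blue), with 95% counting intervals clipped at the axis limits; dotted lines mark 2-fold. Only pairs past the UMI minimum are drawn. All drawn points of Sfrp4 and Frzb lie right of 0 and all those of Sfrp1 lie left of 0.

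Sfrp1 was by level the gene of the epithelium and of glia. In the epithelial class its level was 2218 CPM at P1 (95% interval 2147 to 2291) and 1114 CPM at P7 (1055 to 1174). After thinning, 90.9% of epithelial cells had a UMI at P1 and 76.6% at P7, compared with 3.70% and 7.81% of macrophages. Without thinning the epithelial shares were 98.3% and 87.1%, and the macrophage shares were 10.7% and 12.9%.

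Glia came next at both ages (Sfrp1 at 996 CPM in the P1 library and 505 CPM in the P7 library), and the intervals of the epithelial class and glia did not overlap in either library. The summed glial markers of the epithelial class were 11.9% of their level in glia at P1 and 6.33% at P7, whereas its Sfrp1 level was 223% and 220% of that in glia. The ratio between ages was -0.99 on the log2 scale in the epithelial class (interval -1.08 to -0.90) and -0.98 in glia (-1.03 to -0.93).

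A larger age difference of Sfrp1 was found in 2 mesenchymal classes. Interstitial fibroblasts had 179 CPM at P1 and 26.5 CPM at P7, a log2 ratio of -2.76 (-2.91 to -2.60), which was -3.40 with called doublets removed and -3.78 with clusters in place of gates. Penk mesenchyme had 202 CPM at P1 and 35.5 CPM at P7, a log2 ratio of -2.51 (-3.14 to -1.94). Both levels at P7 overlapped that of macrophages (30.7 CPM), so at P7 only the epithelial class and glia stood above the macrophage background. This depends on the class taken as background: endothelium had 7.44 CPM of Sfrp1 at P7 (3.71 to 13.3), and the intervals of interstitial fibroblasts (24.1 to 29.2) and of Penk, Ccn3 and Aldh1a2 mesenchyme and Otor-high fibrocytes lay above it. Glial markers at P7 were at 8.96% of their level in glia in Ccn3 mesenchyme (Sfrp1 at 6.90%) and at 5.28% in Aldh1a2 mesenchyme (Sfrp1 at 5.87%), and the part of glial RNA in these low levels was not tested. In Otor-high fibrocytes, Aldh1a2 mesenchyme and Ccn3 mesenchyme Sfrp1 lay between 29.7 and 56.0 CPM at both ages, and in the Dlx5-Matn4 cells of P7 at 22.1 CPM (11.8 to 37.8). Over all kept cells the level was 233 CPM at P1 and 161 CPM at P7, and glia supplied 26.2% of the Sfrp1 UMIs at P1 and 63.3% at P7. Melanocytes, too few to rank (39 cells at P1 and 19 at P7), had 845 CPM at P1 and 322 CPM at P7.

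Sfrp5, the closest relative of Sfrp1 and Sfrp2 in sequence, was above the macrophage background in glia at both ages and in neurons at P1, and in no other class of at least 50 cells. The cells without a class had 19.3 CPM at P1 (17.7 to 21.2) and 24.1 CPM at P7 (22.1 to 26.1), and held 31.8% and 16.1% of the Sfrp5 UMIs, against 43.7% and 74.9% in glia. Its glial level was 110 CPM at P1 (102 to 119) and 145 CPM at P7 (140 to 151). In glia that also scored for myelin genes the level was 133 CPM at P1 and 156 CPM at P7, compared with 86.2 CPM and 124 CPM in the other glia, and at both ages these intervals were separate. Sfrp1 had the opposite order, with overlapping intervals at P1 (988 CPM in the myelin-scoring glia and 1004 CPM in the rest) and separate ones at P7 (480 CPM and 553 CPM). P1 neurons had 37.0 CPM of Sfrp5, which was 33.7% of the glial level, while their summed glial markers were 16.2% of the glial level. Over all cells Sfrp5 stood at 15.4 CPM at P1 and 39.1 CPM at P7, a log2 ratio of 1.34 (1.26 to 1.43), while within glia the log2 ratio was 0.40 (0.28 to 0.53). Glia made up 8.01% of kept cells at P1 and 23.9% at P7. With each class given the same weight at both ages the log2 ratio over all cells was 0.51, under the 2-fold line.

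Sfrp2 was a gene of several mesenchymal classes at once. At P1 its levels in Aldh1a2 mesenchyme (82.5 CPM), Penk mesenchyme (78.5 CPM) and Ccn3 mesenchyme (74.1 CPM) had overlapping intervals, followed by Otor-high fibrocytes with 46.9 CPM. At P7 the order began with Aldh1a2 mesenchyme at 134 CPM, Otor-high fibrocytes at 120 CPM and Ccn3 mesenchyme at 111 CPM, and the intervals of neighbours in this order overlapped. In Otor-high fibrocytes P7 stood over P1 by 1.35 on the log2 scale (1.24 to 1.46), and the thinned share of cells with a UMI was 8.08% at P1 and 17.9% at P7. Interstitial fibroblasts showed the reverse direction, at 21.4 CPM (P1) and 8.91 CPM (P7), a log2 ratio of -1.27 (-1.57 to -0.96). The P7 level in interstitial fibroblasts was below that of macrophages in the same library (22.3 CPM), whereas macrophages at P1 had 2.57 CPM. Its interval (7.50 to 10.5) lay above that of endothelium at P7 (2.03 CPM, 0.42 to 5.93). With clusters in place of gates both ratios came to under 2-fold, 0.83 and -0.52, with the same signs.

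Sfrp4, whose product binds Wnt ligands and is known for its role in bone, had the largest log2 ratio of the 10 genes over all cells, from 10.6 CPM at P1 to 70.0 CPM at P7, 2.73 on the log2 scale (2.63 to 2.82). Penk mesenchyme was the highest class at P1 with 68.9 CPM (61.5 to 77.1) and had 287 CPM at P7 (248 to 329). The Dlx5-Matn4 cells of P7 were higher still, at 425 CPM (374 to 481), and 41.4% of them had a UMI after thinning. Only 5 cells fell in that class at P1.

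The Sfrp4 difference was present in both large fibroblast classes as well. Otor-high fibrocytes had 6.17 CPM at P1 and 77.7 CPM at P7, a log2 ratio of 3.65 (3.38 to 3.94). Interstitial fibroblasts had 10.8 CPM at P1 and 75.1 CPM at P7, a log2 ratio of 2.79 (2.53 to 3.07), and 1.82 with clusters in place of gates. Cells without a class had 15.2 CPM at P1 and 125 CPM at P7, a log2 ratio of 3.05 (2.89 to 3.21). They held 3054 of the 6520 Sfrp4 UMIs at P7. In Ccn3 mesenchyme the levels were 2.44 and 10.7 CPM, and in glia 1.17 and 5.76 CPM, which at P7 were under the macrophage level of 30.7 CPM. The macrophage level at P1 was 0.856 CPM, from 1 UMI. The thinned share of macrophages with a Sfrp4 UMI was 4.69% at P7, against 11.3% of Otor-high fibrocytes and 32.6% of Penk mesenchyme.

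Frzb, a secreted Frizzled-related antagonist first known from cartilage, was highest in interstitial fibroblasts at both ages. Its level there was 113 CPM at P1 (107 to 119) and 241 CPM at P7 (234 to 249), and the thinned share of cells with a UMI was 18.6% at P1 and 35.5% at P7. Otor-high fibrocytes had 54.8 CPM at P1 and 113 CPM at P7. Ccn3 mesenchyme had 28.4 CPM at P1 and 138 CPM at P7, with a log2 ratio of 2.28 (2.10 to 2.45). It was in the fifth place at P1 and in the second at P7. These places come from different sets of classes, since neurons, above it at P1, were ranked at P1 alone and the Dlx5-Matn4 cells at P7 alone.

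Outside the mesenchyme, Frzb reached 59.0 CPM in P1 neurons, where 55.8% of cells had a UMI at a median depth of 20314.5 UMIs and 11.1% did after thinning. Pericytes had 24.3 CPM at P1 and 50.6 CPM at P7, both above macrophages (3.42 and 14.9 CPM). Aldh1a2 mesenchyme had 1.46 CPM at P1 and 9.41 CPM at P7, neither above background.

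**Figure D3:**
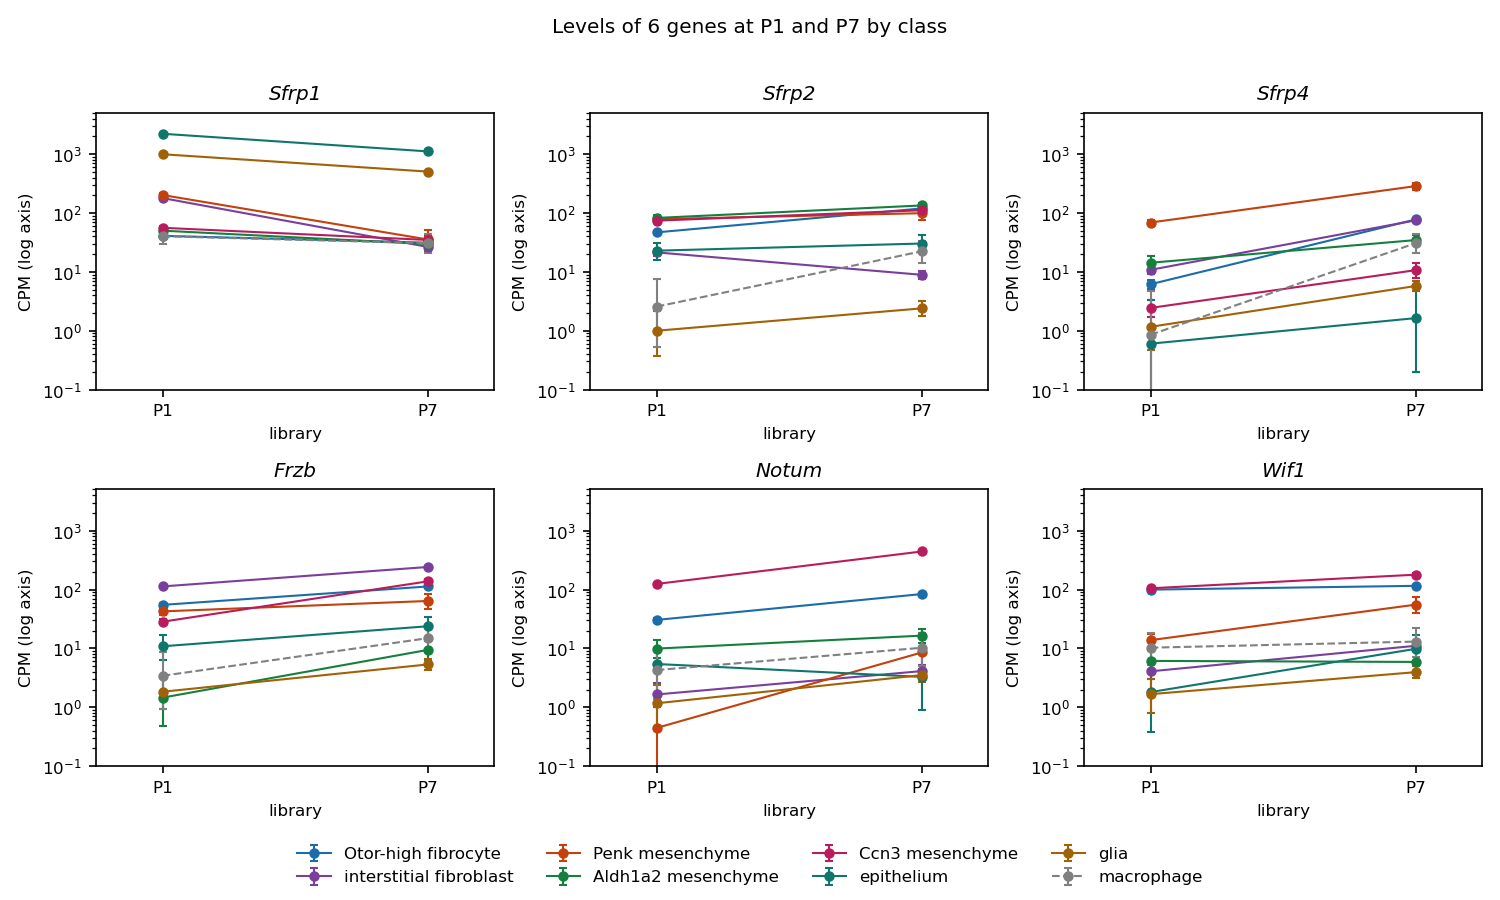
CPM on a log axis (vertical) of Sfrp1, Sfrp2, Sfrp4, Frzb, Notum and Wif1 in the P1 and P7 libraries (horizontal) for 8 classes, with 95% Poisson intervals; the dashed grey line is the macrophage background. Sfrp1 in interstitial fibroblasts and Penk mesenchyme met the background at P7, while Notum in Ccn3 mesenchyme (124 and 442 CPM) stayed above all other classes.

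Dkk2, which binds the LRP co-receptors, was the scarcest of the 10 genes in UMIs (433 at P1 and 174 at P7 over all kept cells). Interstitial fibroblasts had 16.1 CPM at P1 (13.9 to 18.6) and 2.53 CPM at P7 (1.81 to 3.44), a log2 ratio of -2.67 (-3.20 to -2.17), and -3.52 with clusters in place of gates. They were the only class above the macrophage level at P1 (6.85 CPM), although Penk mesenchyme was close to them at 15.1 CPM. That macrophage level came from 8 UMIs in 1 cell, which the Poisson interval treats as independent, so the place of Penk mesenchyme against background at P1 rests on a single cell. Otor-high fibrocytes had 1.05 CPM at P1 and 2.72 CPM at P7, a log2 ratio of 1.37 (0.60 to 2.19), at levels not above macrophages. At P7 no class was above background, whose level again rested on few cells (2 UMIs, in 0.719% of 139 macrophages). Penk mesenchyme was highest at P7 with 9.93 CPM from 7 UMIs, and the place of Dkk2 could not be read from these counts. The shares were low in both classes at P1, with a thinned share of 2.75% in interstitial fibroblasts and 3.49% in Penk mesenchyme.

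Dkk3, a divergent DKK family member, had the smallest ratio between ages over all cells (-0.23 on the log2 scale). No class had a 2-fold ratio, and the log2 ratios of the 8 classes with enough UMIs lay between -0.46 and 0.53. Penk mesenchyme was highest at P1 with 63.4 CPM (56.2 to 71.2) and had 52.5 CPM at P7. The Dlx5-Matn4 cells had 76.5 CPM at P7, with an interval that overlapped that of Penk mesenchyme. Within the epithelial class Dkk3 followed the genes of the tectorial membrane, the gel over the hair cells: cells that scored for those genes had 97.3 CPM at P1 (69.9 to 132) and 123 CPM at P7 (90.7 to 164), whereas the other epithelial cells had 4.85 CPM and 3.57 CPM. The number of cells was small, 56 against 118 at P1 and 61 against 63 at P7. Sfrp2 was divided in the same manner, with 49.9 CPM against 13.7 CPM at P1 and 78.8 CPM against 8.33 CPM at P7. The order of Sfrp1 was the reverse at P1 (1667 CPM against 2406 CPM) but not at P7 (1455 CPM against 959 CPM).

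Notum, the Wnt lipid esterase, was a gene of few mesenchymal classes. Ccn3 mesenchyme had 124 CPM at P1 (119 to 130) and 442 CPM at P7 (423 to 462), with a log2 ratio of 1.83 (1.74 to 1.92), and the thinned share of cells with a UMI was 20.4% at P1 and 40.6% at P7. Otor-high fibrocytes had 30.4 CPM at P1 and 83.7 CPM at P7, a log2 ratio of 1.46 (1.32 to 1.60). These were the only classes above background at P1 (macrophages 4.28 CPM). At P7 the Dlx5-Matn4 cells were also above it with 78.2 CPM, a class that held 5 cells at P1 and was not ranked there. In interstitial fibroblasts Notum was at 1.65 CPM at P1 and 4.11 CPM at P7, below the macrophage value of each library. Over all cells the log2 ratio was 1.03, smaller than in either class, and came to under 2-fold with scaling by the median of gene ratios (0.92), with totals free of mitochondrial, ribosomal protein and haemoglobin genes (0.95) and with a pseudocount of 5 CPM (0.92). Ccn3 mesenchyme made up 14.6% of kept cells at P1 and 4.73% at P7, and it supplied 65.8% of the Notum UMIs at P1 and 35.3% at P7. With each class given the same weight at both ages the log2 ratio was 1.81. Cells without a class had 14.8 CPM of Notum at P1 and 78.4 CPM at P7, a log2 ratio of 2.40 (2.24 to 2.57). They held 1909 of the 5852 Notum UMIs at P7.

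Wif1, which binds Wnt ligands through its WIF domain, shared its leading classes with Notum. Ccn3 mesenchyme (105 CPM) and Otor-high fibrocytes (99.5 CPM) had overlapping intervals at P1 and held 36.1% and 40.6% of all Wif1 UMIs. At P7 Ccn3 mesenchyme had 179 CPM (167 to 191) and Otor-high fibrocytes 115 CPM (111 to 120), and the intervals no longer overlapped. The Dlx5-Matn4 cells lay between them at 148 CPM (118 to 182), with an interval that overlapped both. Cells without a class had 36.9 CPM at P1 and 102 CPM at P7, a log2 ratio of 1.47 (1.36 to 1.58). Of the 5977 Wif1 UMIs at P7 they held 2484, Otor-high fibrocytes 2209 and Ccn3 mesenchyme 835. Penk mesenchyme had 13.8 CPM at P1, where it overlapped the macrophages, and 55.3 CPM at P7, a log2 ratio of 2.00 (1.39 to 2.61). Endothelium passed 2-fold for Wif1 (0.617 CPM at P1 and 14.9 CPM at P7), but its P7 level was close to that of macrophages (13.0 CPM).

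Axin2, the only intracellular protein of the set, followed another order of classes. Ccn3 mesenchyme had 124 CPM at P1 (119 to 130) and 133 CPM at P7 (123 to 144). Aldh1a2 mesenchyme was second at 85.7 CPM (P1) and 106 CPM (P7), and its intervals were separate from those of Ccn3 mesenchyme in both libraries. With clusters in place of gates Aldh1a2 mesenchyme was the highest class at P7. Pericytes had 37.2 CPM and 53.2 CPM. Otor-high fibrocytes had 46.8 CPM at P1 and 28.9 CPM at P7, a log2 ratio of -0.70 (-0.85 to -0.54), which was the largest within any class with enough UMIs. The epithelial class (15.7 and 22.1 CPM) and glia (10.5 and 11.03 CPM) were not above the macrophage level (12.8 and 11.2 CPM). Over all cells the level was 46.1 CPM at P1 and 30.7 CPM at P7, a log2 ratio of -0.59, and with the classes at equal weight the log2 ratio was -0.12. No class passed 2-fold for Axin2.

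The start of Axin2 is shown because this gene is a known target of TCF and LEF factors. Whether they act on it in these cells was not tested. The window covers 250 bases before and 50 bases after the start of the gene in the RefSeq annotation of rat build GRCr8, chr10:94398535-94398834 on the plus strand. Capitals mark the letters CTTTGAA and CTTTGAT, which are forms of the TCF/LEF motif, searched on both strands.

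Axin2: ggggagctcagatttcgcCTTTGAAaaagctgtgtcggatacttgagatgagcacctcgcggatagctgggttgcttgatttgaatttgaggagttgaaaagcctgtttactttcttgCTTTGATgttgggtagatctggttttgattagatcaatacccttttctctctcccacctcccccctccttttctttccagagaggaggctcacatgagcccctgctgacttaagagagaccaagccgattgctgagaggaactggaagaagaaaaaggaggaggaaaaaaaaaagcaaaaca

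The window held 2 matches, on the strand of the gene. Their first bases lay 232 and 132 bases before the start. At least 1 match was found in 8.73% of 33469 windows of the same length and at least 2 in 0.571%. Windows of the same kind were available for Sfrp2, Sfrp5, Frzb and Wif1 and had no match to these letters. Sfrp1, Sfrp4, Dkk2, Dkk3 and Notum had no window in the set that was searched.

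Other genes of the pathway were read from a list ordered by role, of which 78 of 81 were counted in the libraries and 52 had enough UMIs over all cells. Of these, 11 were at least 2-fold higher at P7 and 5 at least 2-fold lower, against 10.4% and 10% of all genes, and their median log2 ratio was 0.10, close to the 0.09 of all genes. Of the 9 feedback and target genes counted, Nkd1, Nkd2, Sp5, Bambi and Tnfrsf19 were highest in Ccn3 mesenchyme at both ages, as Axin2 and Notum were. The others were not: Ccnd1 was highest in glia, Dact1 in pericytes at P1 and interstitial fibroblasts at P7, Dact3 in Penk mesenchyme at P1 and interstitial fibroblasts at P7, and Dact2 stayed at or under 10.9 CPM in every class of at least 50 cells. The share of all genes highest in Ccn3 mesenchyme was not computed, so the number sharing this class has no background. Among the effectors, Lef1, a transcription factor of the pathway, had 188 CPM in Ccn3 mesenchyme at P1 and 264 CPM at P7. Nkd2, an inhibitor of Dishevelled, had 277 CPM and 312 CPM there, and Nkd1, its relative, 169 CPM and 213 CPM. Nkd1 was also at 84.5 CPM in P7 glia, where Axin2 (11.03 CPM) was not above macrophages (11.2 CPM). Endothelium, the lower of these 2 references, had 2.03 CPM of Axin2 at P7.

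Sp5, a transcription factor gene induced by Wnt signalling, did not keep the pattern of Axin2 between ages. In Ccn3 mesenchyme it had 181 CPM at P1 and 79.8 CPM at P7, a log2 ratio of -1.18 (-1.34 to -1.02), while Axin2 had a log2 ratio of 0.10 (-0.03 to 0.23). Bambi, a decoy receptor of the TGF-β family that is also a Wnt target, had 81.3 CPM and 547 CPM in the same class, a log2 ratio of 2.75 (2.65 to 2.85). Of the 8 feedback and target genes with enough UMIs in Ccn3 mesenchyme, 1 was 2-fold higher and 1 was 2-fold lower, against 12.5% and 8.97% of all genes there.

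**Figure D4:**
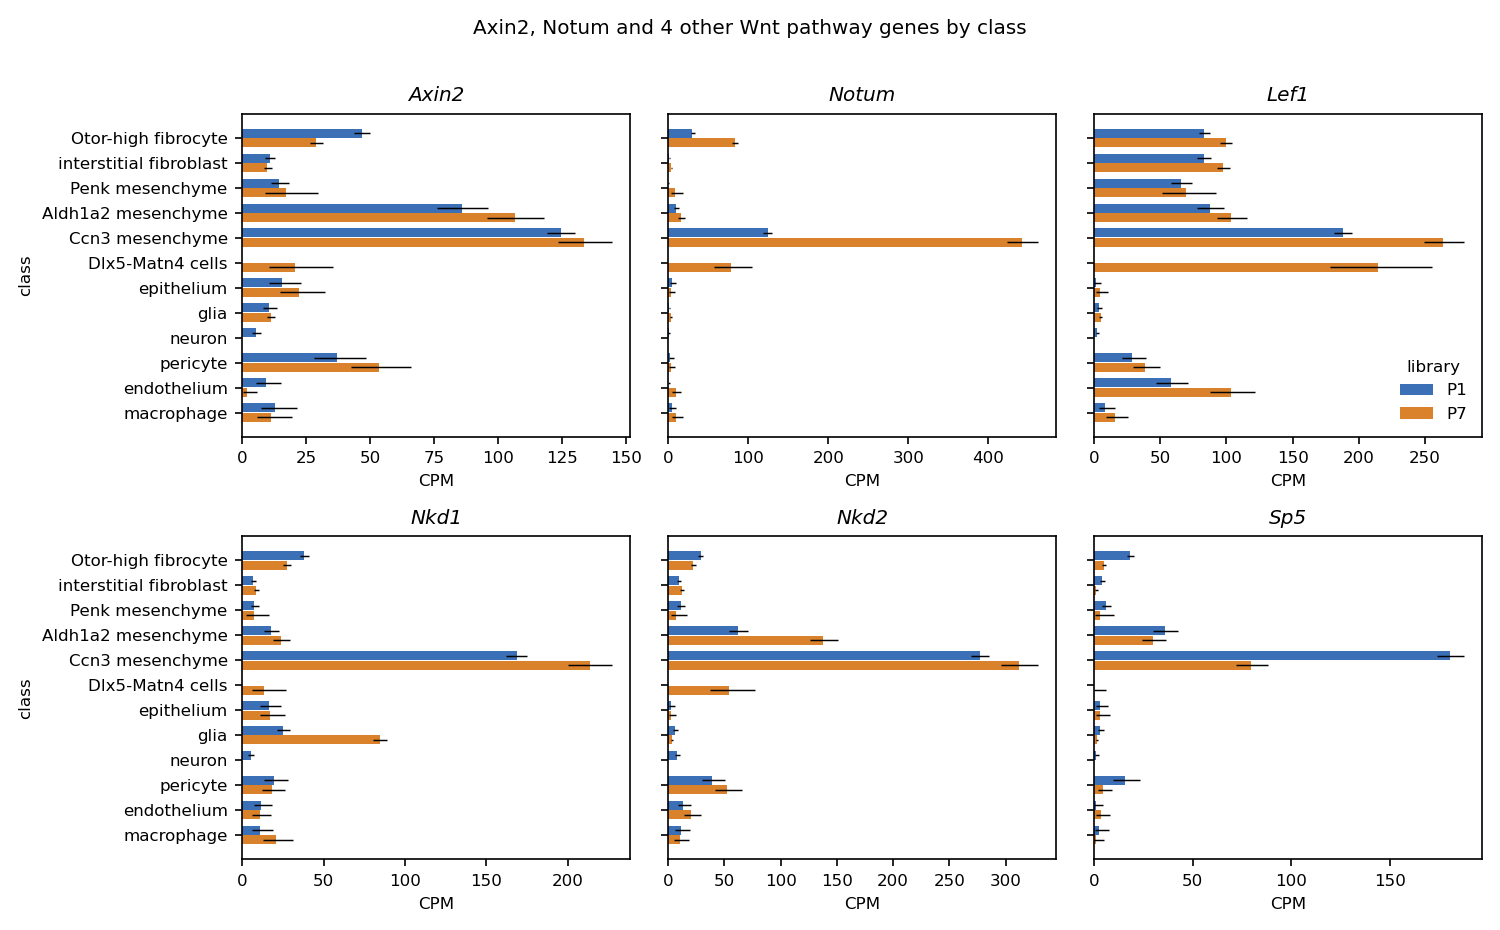
CPM (horizontal axis, separate scales) of Axin2, Notum, Lef1, Nkd1, Nkd2 and Sp5 in each class (vertical axis) at P1 (blue) and P7 (orange), with 95% Poisson intervals. Ccn3 mesenchyme is the highest class in every panel and at both ages; its Sp5 bar is shorter at P7 (79.8 CPM) than at P1 (181 CPM), and its Notum bar is longer.

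Ligands and their partners were highest in several classes. Wnt5a, a ligand best known outside the β-catenin route, was highest in Aldh1a2 mesenchyme at 75.8 CPM (P1) and 198 CPM (P7). Wnt6 was highest in the same class with 107 CPM and 141 CPM. Sfrp2 was highest there too, but its interval overlapped that of the next class in each library. Wls, the carrier that brings Wnt proteins to the cell surface, was also highest in Aldh1a2 mesenchyme, with 214 CPM and 117 CPM. Wnt7a was seen above 10 CPM in the epithelial class alone among classes of at least 50 cells (49.4 and 29.5 CPM), the class with the highest Sfrp1, and Wnt7b likewise (36.2 and 45.9 CPM). Rspo3, a potentiator of Wnt reception, had 29.7 CPM and 66.5 CPM in interstitial fibroblasts, the class with the highest Frzb. At P1 this Rspo3 level was close to those of Penk mesenchyme (27.8 CPM) and macrophages (26.5 CPM). At P7 these classes had 24.1 CPM and 1.86 CPM. Of the 5 ligand genes with enough UMIs over all cells, 3 were 2-fold higher at P7 (Wnt4, Wnt5a and Wnt6) and 0 were 2-fold lower, against 10.4% and 10% of all genes. Wnt6 was under 2-fold in each of the 5 mesenchymal classes, with log2 ratios between -0.44 and 0.92, and past it in glia (37.5 CPM at P1, 81.1 CPM at P7). In interstitial fibroblasts 2 of 6 ligand genes were 2-fold higher (Wnt4 and Wnt5a) and 2 were 2-fold lower, against 11.4% and 10.6% of all genes. The lower ones were Wnt11 and Wnt16, at levels of at most 5.29 CPM. In Otor-high fibrocytes Wnt16 was 2-fold higher (2.00 CPM at P1 and 5.17 CPM at P7). Among other secreted or membrane genes of the list, Sostdc1 had 193 CPM and 652 CPM in glia, the class with the highest Sfrp5. Cpz, a carboxypeptidase with a Frizzled-like domain, had 362 CPM and 752 CPM in the epithelial class.

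The genes whose levels ran most like those of each member were named by Pearson's r over 22 points, each a class in a library, on log2(CPM + 5). The points share libraries and their classes were defined by markers, so r is a description. Sfrp5 had the closest companions, Pou3f2 (r = 0.97), Pnlip (0.96) and Gas2l3 (0.95), all highest in glia. Sfrp4 ran with Clec11a (0.92), Fam180a (0.89) and Runx2 (0.87), the last a marker of the bone list. Notum ran with Fzd10, a Frizzled receptor gene (0.90), with Wif1 (0.88) and with the class marker Ccn3 (0.86), and Wif1 in turn with Notum (0.88), Pdzrn4 (0.84) and the class marker Crym (0.82). Axin2 ran with Emilin2 (0.86), Gzmm (0.86) and Sp5 (0.86). Sfrp2 ran with Igfbp2 (0.89), Gzmm (0.88) and Pou3f3 (0.85), and Sfrp1 with Sult5a1, Tox and Fxyd3 (0.88, 0.88 and 0.87). Frzb ran with Dok5 (0.86), Nt5e and Irx1 (both 0.83), Dkk3 with Dnaaf4, Kctd15 and Gfpt1 (0.90, 0.89 and 0.89), and Dkk2 least closely, with Vcam1 (0.76), Rassf2 (0.74) and Fgfr1 (0.72). Among pairs of the 10 genes, Notum and Wif1 had the highest r, followed by Sfrp2 and Axin2 (0.69) and Notum and Axin2 (0.64).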

How the data were processed

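Deposited values were raw UMI counts per gene and barcode, which the authors made with bcl2fastq and Cell Ranger (version 3.1.0) on the rn6 genome; Seurat 3.1.1 served their clustering, and their clusters were not used here. The study's methods describe stria vascularis, spiral ligament and spiral ganglion as separated from the duct. Filters kept cells with more than 500 genes, fewer than 5000 genes, a minimum of 500 UMIs and a mitochondrial share below 25%, with the methods' limit on UMIs read as a minimum. Each marker list was scored as the mean of ln(1 + counts per 10000) of its genes, capped at and divided by the 95% quantile of cells with a UMI; a cell took the class with the highest score if it was at least 0.3 and at least 0.1 above the next, and lay near the cut within 0.05 of either limit. The scoring was settled after the files were seen, and the members and lists were chosen with earlier results of these data known. The mesenchymal lists came from text on these libraries. UMIs were summed per class and library; ratios were taken for genes with at least 200 UMIs (all cells) or 20 UMIs (class) in the higher library, with exact conditional intervals (SciPy 1.17.1). No p-value was computed, since each age had 1 library. UMIs came from 3′ ends and levels were not compared between genes. Doublets were kept in the main analysis. Genes named were the 10 members, listed pathway genes at 10 CPM or more in a class, and the 3 genes most like each member. The ratio and gate steps were tested on simulated data. Promoter letters came from RefSeq (GRCr8), a build other than that of the counts.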

Additional observations from a re-analysis of the deposited data

Results flagged for a closer look

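Sfrp2 was at least 2-fold higher at P7 in one class and at least 2-fold lower in another. Its log2 ratio of P7 to P1 was 1.35 in Otor-high fibrocytes and -1.27 in interstitial fibroblasts, and with clusters in place of gates both came to under 2-fold (0.83 and -0.52). In interstitial fibroblasts the P7 level of 8.91 CPM (7.50 to 10.5) was below that of macrophages, which had 22.3 CPM at P7 (14.3 to 33.2) and 2.57 CPM at P1. Endothelium had 2.03 CPM at P7 (0.42 to 5.93), an interval below that of interstitial fibroblasts. Dkk2 also had opposite directions in these classes, 1.37 and -2.67, but its level in Otor-high fibrocytes was not above macrophages in either library. The differences between the classes were not tested, because each age had 1 library.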

How the results depend on the processing

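No paired analysis was possible because each age had 1 library. Over all kept cells, the count of genes at least 2-fold lower at P7 (1 as reported) was 0 with a pseudocount of 5 CPM, where Dkk2 came to -0.46 on the log2 scale, and 2 with each class given the same weight at both ages, where Sfrp1 came to -1.11 and Dkk2 to -1.16. The count of genes 2-fold higher was 3 or 4 under all 7 alternatives; Notum was under 2-fold with scaling by the median of gene ratios (0.92), with totals free of mitochondrial, ribosomal protein and haemoglobin genes (0.95) and with the pseudocount (0.92), and Sfrp5 at equal class weights (0.51). Scaling by the median of gene ratios moved every ratio over all cells by 0.11. Within classes, clusters in place of gates gave 2 pairs 2-fold lower instead of 4, and kept the highest class of 5 of the 10 genes at P7; Sfrp4, Dkk2 and Dkk3 had another highest class there because no P7 cluster was named Penk mesenchyme or Dlx5-Matn4 cells, while Sfrp2 was highest in Ccn3 mesenchyme and Axin2 in Aldh1a2 mesenchyme. No ratio past 2-fold changed sign under any alternative, of 70 recomputed over all cells and 389 within classes. A minimum of 100 cells, which leaves out the 81 Dlx5-Matn4 cells, or a stricter cut put Sfrp4 and Dkk3 highest in Penk mesenchyme at P7, and the stricter cut put Dkk2 highest in Penk mesenchyme and Wif1 in Otor-high fibrocytes at P1. The cause of the other shifts was not tested. Counts were lowest for Dkk2, with 174 UMIs at P7.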

Other observations

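Cells with a high score for division genes (Mki67, Top2a, Ube2c, Cenpf and Birc5) differed from the other cells of their class in some members. In Ccn3 mesenchyme at P1, Frzb was at 67.9 CPM in 120 dividing cells and at 24.5 CPM in the other 1746 cells, a log2 ratio of 1.47 (95% counting interval 1.13 to 1.80). Notum was lower in the dividing cells of that class, with 65.8 CPM against 130 CPM (-0.98, -1.30 to -0.69), whereas in Otor-high fibrocytes at P1 it was higher in the dividing cells, with 51.9 CPM in 100 cells against 29.1 CPM in 2593 cells (0.84, 0.42 to 1.23). In Ccn3 mesenchyme at P1 Axin2 had 114 CPM against 125 CPM (-0.14, -0.38 to 0.09). In interstitial fibroblasts Frzb had the opposite order at both ages, with 62.7 CPM in dividing cells and 121 CPM in the others at P1, and with 91.4 CPM and 257 CPM at P7. In glia Sfrp5 was lower in dividing cells at both ages, with 75.5 CPM against 116 CPM at P1 and 109 CPM against 154 CPM at P7. Cells of 1 library are not replicates, and these differences were not tested.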
